A study of Mus musculus with 4 samples.

Results

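The *Lyve1*+ border macrophages of the dura mater and brain were the cells that carried at least 4 of the 6 transcripts *Lyve1*, *Cd163*, *Mrc1*, *Folr2*, *Cbr2* and *Cd209f*, at most 2 of the 6 microglia transcripts *P2ry12*, *Tmem119*, *Gpr34*, *Olfml3*, *Crybb1* and *Siglech*, and neither *Cd3e* nor *Cd79a*. The rule took 670 of the 14586 cells that showed over 1000 but under 6000 genes and no more than 7% of mitochondrial UMIs (unique molecular identifiers, each a counted molecule). The cells were thus chosen by measured values, so the levels of these genes, and of every gene compared with other cells below, describe the cells and test nothing. The cells came from CD45+ cells sorted from C57BL/6J mice aged 8 weeks and sequenced by droplet-based single-cell RNA-seq at day 3 after photothrombotic injury (PTI), in which light on an injected dye closes the vessels below the skull, or after a sham operation. There were 4 groups with 1 library each: sham dura mater and sham brain (S3, labelled CT), and injured dura mater and injured brain (D3). The number of mice in a library is not given in the sources used here. Each group being 1 library, the variation among mice is not known and no test is given, and a difference between groups cannot be told apart from a difference between libraries.

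Border macrophages live at the edges of the central nervous system, in the dura mater, in the pia and arachnoid below it, and around vessels that enter the brain, whereas microglia live in the brain tissue itself. They take up proteins, hemoglobin and dying cells from blood and fluid through scavenger receptors and lectins, and *Lyve1*, a receptor for hyaluronan, marks those that lie along vessels. Other border macrophages carry less *Lyve1* and more major histocompatibility complex (MHC) class II, with which fragments of protein are shown to T cells.

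The sham dura mater held 183 of these macrophages, 5.13% of its kept cells (95% interval 4.43 to 5.90), and the injured dura mater held 325, 12.2% (11 to 13.5). The sham brain held 59, 1.57% (1.20 to 2.03), and the injured brain held 103, 2.24% (1.83 to 2.71). The share was higher in the injured library of both tissues and higher in the dura mater than in the brain, with shares read against all CD45+ cells kept. With at least 5 border genes asked for, the brain shares were 1.23% in sham and 1.35% in injured, and the dura mater shares 2.89% and 8.02%. With no microglia transcript allowed, the dura mater shares were close, at 1.20% in sham (43 cells) and 1.39% in injured (37 cells). The brain shares were then 0.0267% and 0.282%. Other macrophages, taken as cells with at least 4 of a set of 6 general macrophage genes, among them *C1qa*, *C1qb*, *C1qc* and *Csf1r*, and at most 1 of the 6 border genes and otherwise by the same rule, numbered 151, 236, 179 and 1265 in sham dura mater, injured dura mater, sham brain and injured brain. Of both classes together, the border macrophages were 54.8% and 57.9% in the sham and injured dura mater, and 24.8% and 7.53% in the sham and injured brain. Their number in the injured brain was thus above that of the sham brain while their share among macrophages was lower.

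The cells gave 2221240 UMIs in sham dura mater, 5084062 in injured dura mater, 705486 in sham brain and 1253742 in injured brain, with median depths of 11605, 14921, 10601 and 8724 UMIs per cell. Levels are UMIs of a gene per 1000000 UMIs of all border macrophages of a library (CPM), with a 95% interval that is exact Poisson for levels and Clopper-Pearson for shares and covers counting error only. A gene was called when its CPM differed at least 2-fold and both groups together held 100 or more of its UMIs. For ratios a count of 0 was set to 3 UMIs. No barcode of a border macrophage was found in more than 1 library, and a doublet score marked 11, 13, 1 and 2 of them in the order above. The limit on microglia transcripts left out 146, 220, 73 and 103 cells with at least 4 border genes, which were deeper, with medians of 14157, 18438, 13682 and 20139 UMIs. Neutrophil transcripts were present throughout: the 11 genes of a neutrophil list summed to 48890 CPM in sham dura mater, 40066 in injured dura mater, 24095 in sham brain and 17824 in injured brain, none of them at 0. In the injured brain 96.4% of these UMIs lay in 5 cells, against 33.8% in the sham dura mater. Lymphocytes with fewer than 2 of the 6 general macrophage genes, a reference for free RNA chosen after the data were seen, carried the same list at 22702, 10583, 4375 and 3211 CPM, at median depths of 6065.5, 5902, 6009.5 and 4707 UMIs. Choosing them by few macrophage genes keeps their level of such genes low, so values in all lymphocytes are given as well for several genes. Lymphocytes with no further word are those with few macrophage genes. Of the other cell types the gate could hold, the T and NK cell, erythroid, fibroblast and vessel, and neural and glial lists each summed to at most 136 CPM in every library, the B cell list to 134 to 340 CPM, the dendritic cell list to 163 to 229 CPM and the microglia list to 681 to 1046 CPM, with *Cd3e* and *Cd79a* at 0 by the rule. The monocyte and infiltrating macrophage list was higher, at 3304, 3384, 2276 and 4956 CPM in the order above. The mast cell list was at 2917, 259, 4.25 and 1.60 CPM, with 98.2% of its sham dura mater UMIs in 5 cells.

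The 6 genes of the rule together were at 4740, 4872, 5313 and 3805 CPM in sham dura mater, injured dura mater, sham brain and injured brain. All lymphocytes of the same libraries carried them at 566, 1030, 293 and 199 CPM, and lymphocytes with few macrophage genes at 19.8, 39.8, 6.70 and 6.97. *Mrc1*, the mannose receptor, was at 2061 CPM in sham dura mater, 1891 in injured dura mater, 2736 in sham brain and 1681 in injured brain, against at most 508 in all lymphocytes and 11.9 in those with few macrophage genes. *Lyve1* (chr7:110850607-110863239 of GRCm38) was at 260 (239 to 282), 404 (387 to 422), 577 (522 to 636) and 564 (523 to 607) CPM in the same order, so it was lowest in the sham dura mater and alike in both brain libraries. *Cd163*, the receptor for hemoglobin bound to haptoglobin, was at 425, 573, 604 and 484 CPM. *Cd209f*, a C-type lectin, ran the other way, at 812, 652, 458 and 250 CPM, and was lowest in the injured brain. Among genes the rule did not use, *Pf4*, a chemokine made by border macrophages and platelets, was at 3246, 2488, 3250 and 2551 CPM, against 267, 124, 159 and 915 in the other macrophages. *F13a1*, the coagulation factor XIII A chain, was at 990, 1338, 1128 and 909 CPM, against 238, 400, 240 and 276. Both therefore stood above the other macrophages of the same library in all 4 libraries.

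**Figure D1:**
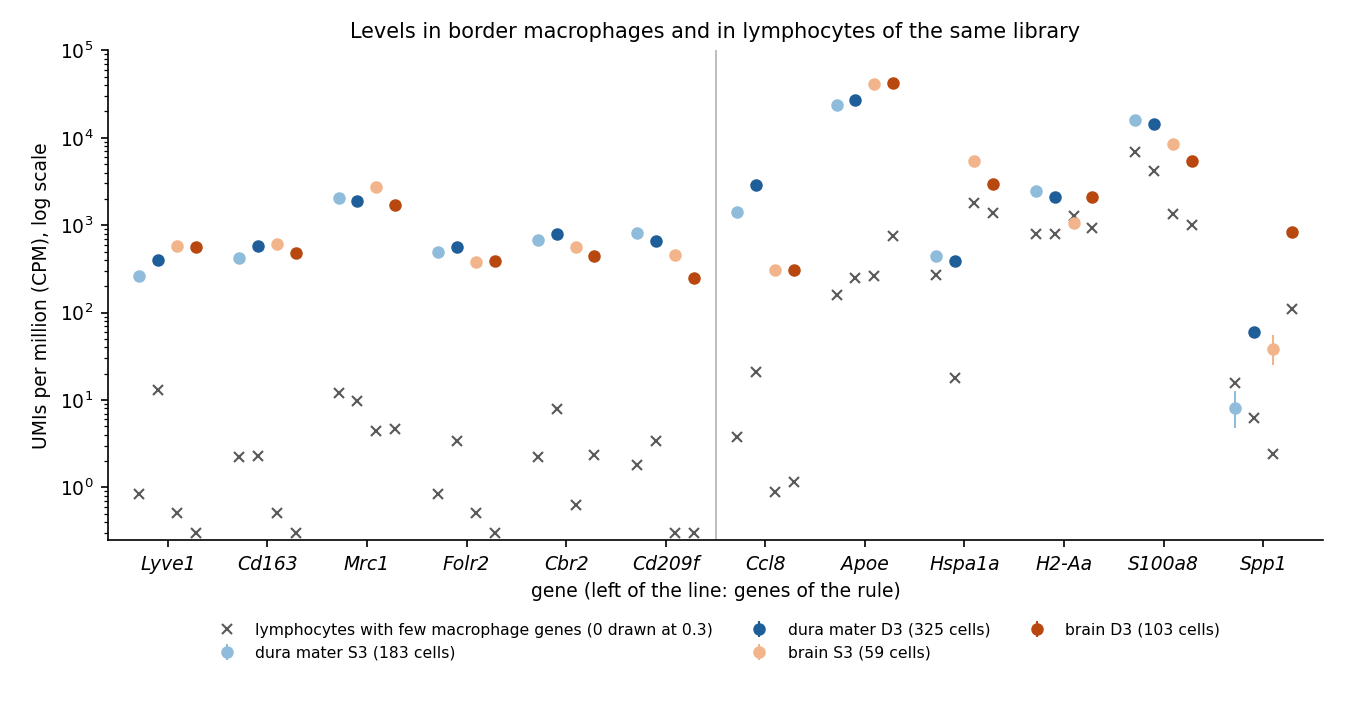
Level of 12 genes in the border macrophages (circles, with exact Poisson 95% intervals, most of them smaller than the symbol) and in lymphocytes with few macrophage genes (crosses, 0 drawn at 0.3) of the same library, in CPM on a log scale, with the genes of the rule left of the line. *Ccl8* stands high in both dura mater libraries, *Hspa1a* in both brain libraries, and *H2-Aa* of the sham brain lies just below the lymphocytes.

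The cells varied in how many of the 6 genes they carried. In sham dura mater 80, 72 and 31 cells carried 4, 5 and 6 of them, in injured dura mater 111, 132 and 82, in sham brain 13, 31 and 15, and in injured brain 41, 39 and 23. Just outside the rule, the 77, 105, 14 and 50 cells with 3 genes had *Lyve1* at 57.1, 14, 41.3 and 48.3 CPM, and just inside it the cells with 4 genes had 121, 182, 413 and 340 CPM. *H2-Aa*, which encodes the alpha chain of an MHC class II molecule, was at 7197, 5057, 5637 and 1169 CPM in the cells just outside and at 3035, 2705, 796 and 2264 CPM in those just inside. In the dura mater it was lower again in cells with 6 genes, at 1710 CPM in sham and 1190 CPM in injured. A *Lyve1* UMI itself was seen in 102 of 183 cells in sham dura mater (55.7%), 215 of 325 in injured dura mater (66.2%), 53 of 59 in sham brain (89.8%) and 85 of 103 in injured brain (82.5%). With each cell thinned to 3000 UMIs these shares were 33%, 46.1%, 71.2% and 63.4%, beside 0.356%, 0.418%, 0.178% and 0% of lymphocytes and 2.54%, 5.17%, 2.19% and 2.25% of all lymphocytes. The brain cells chosen thus carried *Lyve1* more often than the dura mater cells chosen, before and after thinning. The rule, which uses *Lyve1*, was applied before thinning, so the choice of cells was not made at equal depth. Dura mater cells without a *Lyve1* UMI had *H2-Aa* at 3399 CPM in sham and 3562 CPM in injured, and those with one had 1769 and 1370 CPM. In the injured brain the 18 cells without and the 85 with one were alike, at 2092 and 2135 CPM. In the sham brain the 6 without and the 53 with one had 2345 and 965 CPM.

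In the dura mater, injured border macrophages carried more chemokines and more *Wfdc17*, *Fcna* and *Saa3* than sham ones. Transcripts of the cell cycle were also higher, carried by few cells, while the scavenger, heme and interferon genes stayed within 2-fold. Of 7046 genes, 97 were called (1.38%), 43 higher (0.61%) and 54 lower (0.766%), and the median log2 ratio of all of them was -0.03. Of 16 chemokines with enough UMIs, 4 were at least 2-fold higher and none lower, and their median log2 ratio was 0.51. Of 29 other genes of border macrophages 3 were higher and none lower (median 0.13), and of 15 cell cycle genes 8 were higher and none lower (median 1.06).

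*Ccl6* and *Ccl9* encode chemokines of the macrophage inflammatory protein family. *Ccl6* was at 352 CPM in sham and 1005 in injured dura mater (log2 ratio 1.52, 1.41 to 1.63), and *Ccl9* at 255 and 637 CPM (1.32, 1.19 to 1.45). *Cxcl2*, which draws neutrophils, was at 904 and 1892 CPM (1.06, 1.0 to 1.13). *Cxcl1*, another neutrophil chemokine, was at 8.55 and 87.9 CPM (3.36, 2.70 to 4.11), but only 44 of 325 injured cells had a UMI of it and 51.2% of its UMIs lay in 5 cells. In all lymphocytes *Ccl6* was at 101 and 253 CPM, *Ccl9* at 64.8 and 197, *Cxcl2* at 240 and 886 and *Cxcl1* at 10.9 and 16.8 in sham and injured dura mater. In lymphocytes with few macrophage genes each was at most at 23.3 CPM. With the level of all lymphocytes subtracted the median log2 ratio of the chemokines was 0.30. *Ccl8* (chr11:82115185-82116799 of GRCm38), which draws monocytes, was just short of the call, at 1428 CPM (1379 to 1479) in sham and 2849 CPM (2802 to 2895) in injured dura mater (log2 ratio 1.0, 0.94 to 1.05). It was seen in 54.5% and 68.8% of cells thinned to 3000 UMIs, beside 1.07% and 7.11% of lymphocytes and 6.30% and 20.9% of all lymphocytes. Of its neighbours on chromosome 11, *Ccl2* was at 1531 and 2311 CPM (0.59), *Ccl7* at 1081 and 1922 (0.83) and *Ccl12* at 577 and 789 (0.45). All 4 monocyte chemokines were higher in the injured library, by less than 2-fold each.

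*Wfdc17*, a small secreted protein with a protease inhibitor fold, was at 476 CPM in sham and 1532 in injured dura mater (log2 ratio 1.69, 1.59 to 1.78), with a median over cells of 1.81 and 8.24 UMIs per 10000 and lymphocytes at 18.0 and 135 CPM, or 111 and 388 with all of them counted. *Fcna*, a lectin that starts the complement cascade, was at 57.6 and 128 CPM (1.15, 0.87 to 1.43). *Saa3* (chr7:46711998-46715700 of GRCm38), an acute-phase apolipoprotein, was at 23.0 and 184 CPM (3.00, 2.59 to 3.44). In the sham library 6 cells carried all of its UMIs and 98% lay in 5 cells, whereas 77 of the injured cells had one, and thinned to 3000 UMIs the shares were 0.568% and 15.8%, so the gene was found in more cells and not only at a higher level in a few. *Vsig4*, a complement receptor of resident macrophages, had 1 UMI in the sham library and 126 in the injured (0.45 and 24.8 CPM, log2 ratio 5.78, 3.28 to 11.10), in 25 of 325 cells with 68.3% of UMIs in 5 cells. *BC100530* had 0 UMIs in the sham library and 300 in the injured, 43.7-fold higher with the 0 set to 3 UMIs, and 99.3% of the 300 lay in 5 cells. *Emp1*, a membrane protein, was at 7.20 and 61.8 CPM (3.1, 2.38 to 3.92). *Id3*, an inhibitor of DNA binding and the only called gene among 20 macrophage transcription factors, was at 25.7 and 61.8 CPM (1.27).

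The cell cycle genes were carried by few cells. *Mki67*, a protein of dividing nuclei, was at 16.2 and 51.9 CPM in sham and injured dura mater, and *Birc5*, needed for division of the cell body, at 6.75 and 32.7 CPM. Lymphocytes of these libraries had more of both, with *Mki67* at 251 and 159 CPM. At least 3 of the 6 genes *Mki67*, *Top2a*, *Birc5*, *Ccnb2*, *Cdk1* and *Ube2c* were found in 3 of 183 sham cells (1.64%, 0.339 to 4.72) and 28 of 325 injured cells (8.62%, 5.8 to 12.2). These 28 cells had a median depth of 23127.5 UMIs against 14921 in all injured dura mater cells, and lower *Apoe* (11257 CPM) and *Cd209f* (156 CPM) than the library as a whole (27330 and 652 CPM). The neutrophil genes *Camp* and *S100a8* were at 11465 and 39478 CPM in the 28 cells, and at 65.6 and 180 CPM in the 3 sham cells. In all injured cells with 4, 5 and 6 border genes *S100a8* was at 22435.5, 10412 and 10619 CPM. The part of neutrophil transcripts in the cell cycle values was not tested. The list's median log2 ratio of 1.06 came to 0.24 over 10 genes in cells with at least 5 border genes. It was 0.18 over 4 genes in cells thinned to 3000 UMIs. Without cells that had a UMI of *Ly6c2*, *Ccr2*, *Plac8* or *Arg1*, genes of monocytes, it was 0.31 over 5 genes.

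The genes of uptake differed little in the dura mater. None of 22 scavenging and efferocytosis genes (median log2 ratio 0.16), 15 C-type lectins (-0.12), 15 heme and iron genes (0.13), 19 interferon-stimulated genes (-0.12), 10 heat shock genes (0.08) and 18 immediate early genes (-0.13) was called. Here and below, some lists include genes of the rule: *Mrc1* and *Lyve1* in scavenging, *Mrc1* and *Cd209f* in C-type lectins, and *Cd163* in heme and iron. *Hmox1*, which breaks down heme, was at 377 CPM in sham and 477 in injured dura mater, *Slc40a1*, the iron exporter, at 188 and 136, and *Axl*, a receptor for dying cells, at 149 and 126. Of 19 lysosome genes 16 were above 0 and none was called (median 0.29), with *Ctsd*, a lysosomal protease, at 1052 and 1665 CPM and *Ctsb* at 2781 and 3654 CPM. Of genes with 200 or more UMIs, those lower in the injured library by the widest margin were *Mcpt4*, *Cpa3*, *Tpsb2* and *Cma1*, proteases of mast cells, and 5 of 5 measured mast cell genes were at least 2-fold lower. *Cpa3* was at 402 CPM in sham and 30.1 in injured dura mater, and 98.7% of its sham UMIs lay in 5 cells. Without the 9 sham and 26 injured cells that had at least 3 of 6 mast cell genes, an alternative added after the data were seen, the list's median log2 ratio of -3.45 over 5 genes came to 0.59 over the 2 genes that still had enough UMIs. *Retnla*, a secreted protein of alternatively activated macrophages, was at 84.2 and 17.5 CPM in 3 and 6 cells, and *Thbs1*, the matrix protein thrombospondin 1, at 347 and 82.2 CPM (-2.08, -2.25 to -1.90). Of 11 neutrophil genes all 11 were below 0 (median -0.35), and their part in the lower genes was not tested.

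**Figure D2:**
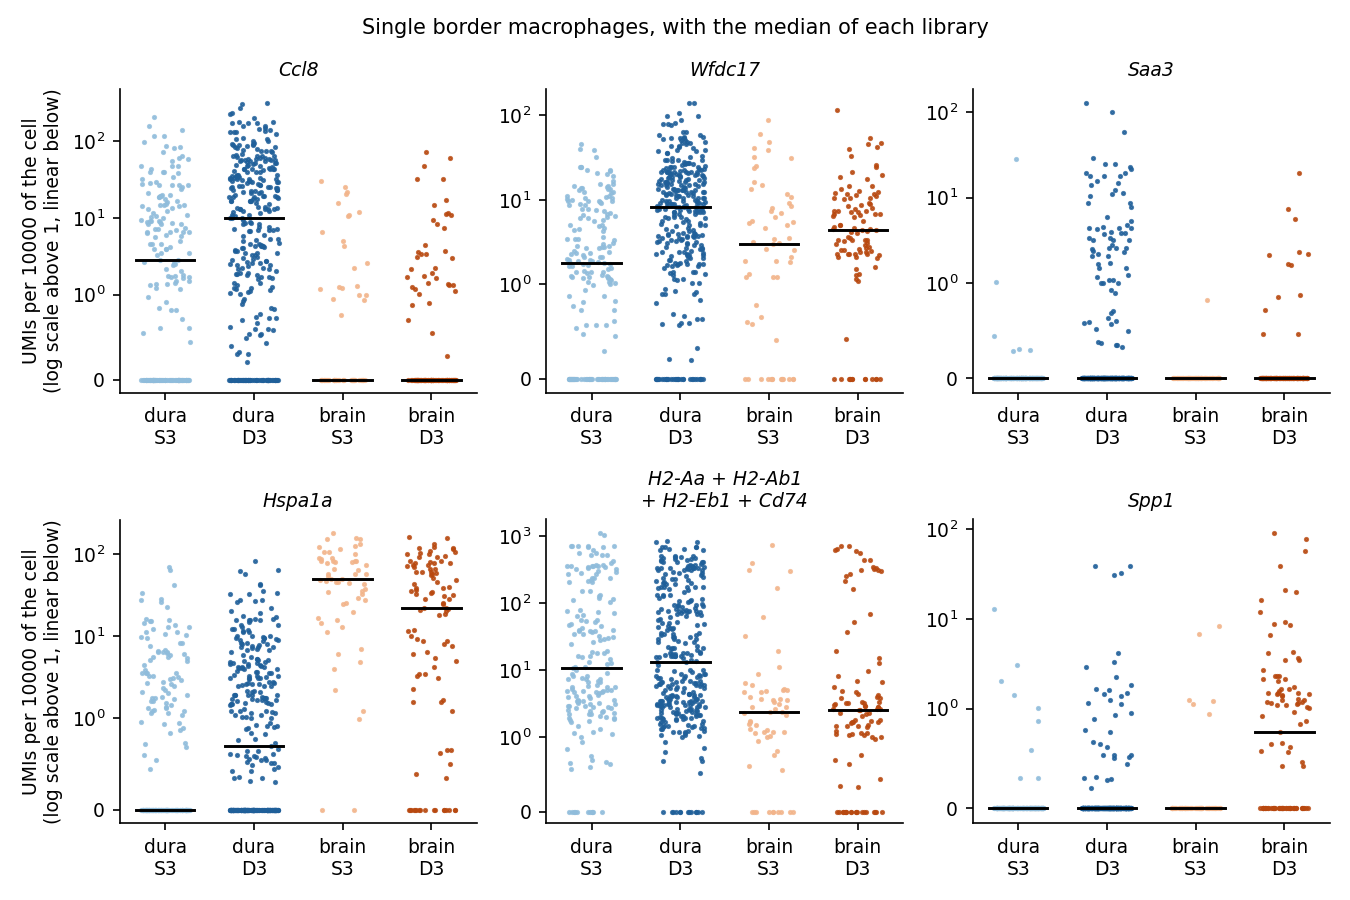
UMIs per 10000 of the cell in every border macrophage (points) with the median of the library (black line), on an axis that is logarithmic above 1 and linear below, for 5 genes and for the sum of 4 MHC class II genes. *Ccl8* and *Wfdc17* are higher across most injured dura mater cells, and *Hspa1a* across most brain cells, *Saa3* and, in the brain, high MHC class II lie in a minority of cells, and the median of *Spp1* is above 0 in the injured brain alone.

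In the brain, the injured border macrophages carried more transcripts of infiltrating macrophages, glycolysis and MHC class II than the sham ones, several of them in a small number of cells, while the scavenging, heme, iron and lysosome genes stayed within 2-fold. Of 2926 genes, 122 were called (4.17%), 72 higher (2.46%) and 50 lower (1.71%), and the median log2 ratio of all of them was -0.04. Of 14 genes of monocytes and infiltrating macrophages 10 were higher and none lower (median 2.17), of 11 genes of hypoxia and glycolysis 7 were higher and none lower (1.12), and of 8 measured genes of the MHC class II pathway 4 were higher and none lower (1.01). None of 17 scavenging, 13 heme and iron and 17 lysosome genes was called, with medians of -0.16, 0.08 and 0.30. Of 13 C-type lectins *Cd209a* was higher, at 32.6 and 102 CPM with 79.7% of the injured UMIs in 5 cells, and *Cd209g* was lower (median -0.30).

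*Gpnmb*, a glycoprotein of phagocytes with a heavy load, was at 2.83 CPM (0.343 to 10.2) in sham and 243 CPM (217 to 272) in injured brain (log2 ratio 6.42, 4.56 to 9.48). It was seen in 16 of 103 injured cells and 96.4% of its UMIs lay in 5 of them, and the cells with a UMI had a median depth of 23098.5 UMIs against 7920 in those without. *Arg1*, arginase, was at 5.67 and 199 CPM with 88.4% of injured UMIs in 5 cells, and *Fabp5*, a fatty acid carrier, at 32.6 and 429 CPM with 90.3%. *Chil3*, a secreted chitinase-like protein, was at 31.2 and 359 CPM with 96.9%, and *Stmn1*, a protein of dividing cells, at 22.7 and 148 CPM with 87.1%. *Spp1*, osteopontin, was at 38.3 CPM (25.2 to 55.7) in sham and 830 CPM (781 to 882) in injured brain (log2 ratio 4.44, 3.89 to 5.05). It had a UMI in 6 of 59 sham and 60 of 103 injured cells, but 80.8% of the injured UMIs lay in 5 cells. All 6 genes thus had most of their injured UMIs in a few of the 103 cells. Among injured cells with 4, 5 and 6 border genes, *Spp1* was at 1764, 177 and 288 CPM and *Arg1* at 485, 14.6 and 7.20, so both were highest in the cells just inside the rule. *Gpnmb* was at 284, 6.26 and 580 CPM and *Fabp5* at 578, 47.97 and 821 in the same order. With at least 5 border genes asked for, the log2 ratio of *Spp1* was 2.17. *Spp1* was seen in 8.47% and 29.7% of cells thinned to 3000 UMIs, but lymphocytes of the same libraries had it in 0.713% and 33.3% and at 2.4 and 109 CPM, and all lymphocytes in 1.78% and 41.2% and at 18.5 and 2329 CPM. The share in the injured brain was therefore no higher than in lymphocytes. Other macrophages of the injured brain carried *Gpnmb* at 1013, *Arg1* at 1512, *Fabp5* at 2176 and *Spp1* at 4309 CPM, above the border macrophages for each. When the free RNA level of all lymphocytes was subtracted, *Spp1* and *Arg1* turned to log2 ratios of -3.05 and -1.08, and the medians of the monocyte, hypoxia and MHC class II lists to -1.08, -2.55 and -0.42 over the 5, 1 and 1 genes that could still be compared. Those lymphocytes held 163 of 419 cells with at least 4 general macrophage genes in the injured brain, and subtraction of the lymphocytes with few such genes left *Spp1* at 4.33 and the MHC class II list, over 6 genes, at 4.84. In the sham brain these lymphocytes carried the MHC class II list at 10058 CPM, above the border macrophages at 7379 CPM. The value of 4.84 therefore gives no size for the difference.

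Glycolysis genes were spread more widely. *Pgk1* was at 65.2 CPM in sham and 241 in injured brain (log2 ratio 1.89, 1.43 to 2.37), *Gapdh* at 466 and 1135 (1.28, 1.11 to 1.46) and *Ldha* at 122 and 303 (1.31, 0.97 to 1.67). Of the injured brain UMIs of *Pgk1*, 42.7% lay in 5 cells, against a median of 22.0% over all genes compared. In the dura mater the same 3 genes had log2 ratios of -0.05, 0.06 and -0.16. Without the 25 of 59 sham and 46 of 103 injured cells that had a UMI of a monocyte gene, 48 of 1145 genes were called (4.19%), and the list's median in the brain was 0.67 over 4 genes. *Vegfa*, the vascular growth factor, had 15 UMIs in the sham brain and 74 in the injured (21.3 and 59.0 CPM), too few for the comparison of these 2 libraries. MHC class II genes differed in the sum and not in the median cell. *H2-Ab1* was at 1015 CPM in sham and 2272 in injured brain (1.16, 1.04 to 1.28) and *Cd74*, the chain that guides MHC class II molecules, at 2591 and 5606 CPM (1.11, 1.04 to 1.19), with 96.8% and 48.8% of *H2-Ab1* UMIs in 5 cells. The 4 genes *H2-Aa*, *H2-Ab1*, *H2-Eb1* and *Cd74* together had a median over cells of 241 CPM in sham and 253 in injured brain, while the 90th percentile was 3883 and 32120 CPM. The list's median turned to -0.33 when cells with 3 border genes were let in. It was 0.098 over 3 genes without the cells that had a UMI of a monocyte gene and 0.40 with no limit on microglia transcripts.

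*Ccl9* was at 133 CPM in sham and 389 in injured brain (1.55, 1.23 to 1.88), *Ccl4* at 723 and 1548 (1.10) and *Cxcl16* at 70.9 and 150 (1.08). *Ccl8*, *Ccl7* and *Ccl12* had log2 ratios of 0.03, 0.02 and -0.24, each within 2-fold. *Ctsd* was at 1684 and 3348 CPM (0.99, 0.90 to 1.09), just short of the call. Among lower genes, *Ccl5*, a T cell chemokine, was at 431 and 53.4 CPM, with 97.0% of sham UMIs in 5 cells, and lymphocytes carried 1739 and 3748 CPM. *Cd209g*, a lectin, was at 122 and 57.4 CPM (-1.09, -1.56 to -0.62), with 72.1% of sham UMIs in 5 cells. *Hspb1* and *Hspa1b* were the heat shock genes called lower, *Hspa1b* at 2261 and 857 CPM (-1.40, -1.51 to -1.29), and 9 of 11 heat shock genes were below 0 (median -0.53). *Hdc*, which makes histamine, was at 285 and 58.2 CPM and *Mxd1*, a transcription factor of maturing blood cells, at 347 and 72.6. The neutrophil genes *Csf3r* and *G0s2*, at 292 and 71.0 and at 251 and 62.2 CPM, also stood among the lower genes with the widest margins. Of the sham UMIs of *Hdc*, *Mxd1*, *Csf3r* and *G0s2*, 62.7%, 65.3%, 54.4% and 81.9% lay in 5 of the 59 cells. The neutrophil list split, with 4 genes higher (*Camp*, *Ltf*, *Ngp* and *Lcn2*) and 5 lower, and its part in the other differences was not tested.

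**Figure D3:**
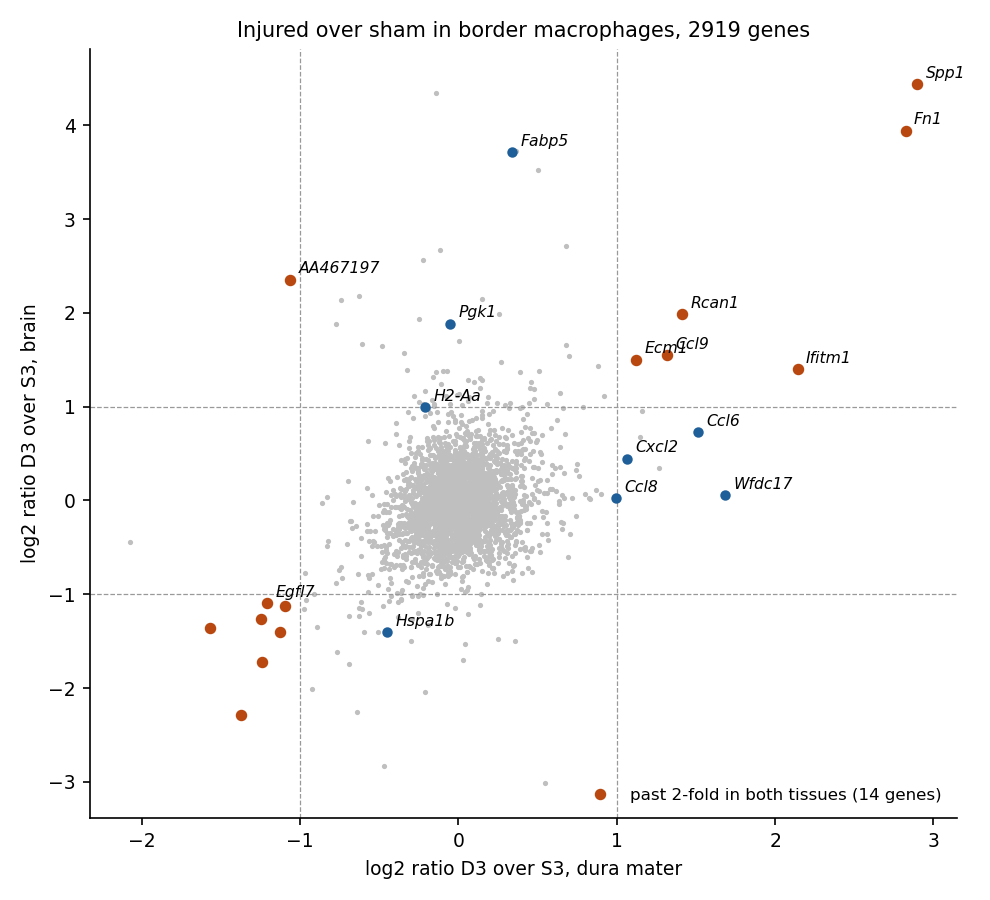
Log2 ratio of injured over sham in the dura mater (horizontal) and the brain (vertical) for the 2919 genes with 100 or more UMIs in each comparison, with broken lines at 2-fold. The 14 genes past 2-fold in both tissues are in orange, of which *AA467197* alone lies in opposite directions, and *Wfdc17*, *Ccl6* and *Ccl8* lie to the right near the middle of the vertical axis.

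Of 2919 genes measured in both injury comparisons, which share no library, 12 were at least 2-fold higher in the dura mater and 69 in the brain. At least 2-fold lower were 9 in the dura mater and 49 in the brain, and 13 genes were past 2-fold in the same direction in both. Those were *Spp1*, *Fn1*, *Rcan1*, *Ccl9*, *Ifitm1* and *Ecm1* on the higher side, and *Adam8*, *Egfl7*, *Hdc*, *Mcemp1*, *Mmp8*, *Slc7a11* and *Vps37b* on the lower side, named here because they were the whole set and so after their values were seen. *Mmp8* belongs to the neutrophil list, and the part of neutrophil transcripts in the lower side was not tested. *Rcan1*, an inhibitor of calcineurin, was at 74.3, 198, 45.4 and 179 CPM in sham dura mater, injured dura mater, sham brain and injured brain, with at most 7.40 CPM in lymphocytes and 63.2 in all of them. *Ecm1*, a matrix protein, was at 36.0, 78.3, 39.7 and 112 CPM in the same order. Both were thus higher in the injured library of each tissue, with 19.4% and 15.3% of the injured dura mater UMIs in 5 cells and 40.0% and 38.3% of those in the injured brain. *Fn1*, fibronectin, was at 13.1, 92.4, 8.50 and 131 CPM, with 78.3% of the injured dura mater and 65.2% of the injured brain UMIs in 5 cells. *Spp1* had 81.4% and 80.8% there.

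Between tissues, sham brain border macrophages carried more heat shock transcripts, *Ccl3* and *Ccl12* than sham dura mater ones. They carried less *Ccl8*, *Axl*, MHC class II and interferon-stimulated transcripts. *Lyve1*, which the rule used to choose the cells, was also higher in the sham brain. Of 4330 genes, 241 were called (5.57%), 58 higher in the brain (1.34%) and 183 lower (4.23%), and the median log2 ratio of brain over dura mater over all of them was -0.05. Of 11 heat shock genes 8 were higher and none lower (median 1.58), of 8 genes of the MHC class II pathway 4 were lower and none higher (-1.02), and of 17 interferon-stimulated genes 5 were lower and none higher (-0.88). Of 20 scavenging genes *Lyve1* itself was higher and *Axl* and *Siglec1* were lower (median 0.15), and of 27 other genes of border macrophages none was higher and 2 were lower (0.24). Of 12 genes of monocytes and infiltrating macrophages 5 were lower in the brain and none higher (-0.78), and of 11 neutrophil genes 4 were lower and 1 higher (-0.90). The part of both lists in the other differences was not tested.

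*Hspa1a* and *Hspa1b* encode the inducible heat shock protein 70, and their transcripts are nearly identical, so reads may have been split between them. *Hspa1a* was at 441 CPM (414 to 469) in sham dura mater and 5374 (5204 to 5547) in sham brain (log2 ratio 3.61, 3.51 to 3.71), and *Hspa1b* at 212 and 2261 CPM (3.41, 3.26 to 3.56). With each cell thinned to 3000 UMIs *Hspa1a* was seen in 32.4% of dura mater and 93.2% of brain cells, so the difference reached most cells. *Hsph1*, a heat shock protein 110, was at 30.6 and 240 CPM (2.97, 2.55 to 3.40), *Hsp90aa1*, an inducible heat shock protein 90, at 424 and 1588 (1.91), and *Dnajb1*, a co-chaperone, at 243 and 632 (1.38). *Hspb1*, a small heat shock protein, was at 3.15 and 420 CPM, with 88.2% of its brain UMIs in 5 cells. Lymphocytes of the same libraries moved alike, with *Hspa1a* at 267 CPM in sham dura mater and 1795 in sham brain and *Hspa1b* at 154 and 1046, and these genes are also raised by the dissociation of tissue, whose part was not tested. Of 18 immediate early genes, which dissociation raises too, *Klf2* alone was called, higher in the brain (median -0.12). Heat shock factor binds inverted repeats of the letters GAA, which are searched here as GAANNTTC and TTCNNGAA. Each reads the same on both strands, and neighbouring matches can share letters. The promoters of 4 of the higher genes are shown from RefSeq on GRCm38.p6, from 250 bases before to 50 after the start of the gene, 5′ to 3′, with matches in capitals: Hspa1a (chr17:34972107-34972406, minus strand), Hspa1b (chr17:34959189-34959488, minus strand), Hspb1 (chr5:135887669-135887968, plus strand) and Hsph1 (chr5:149636287-149636586, minus strand).
Hspa1a: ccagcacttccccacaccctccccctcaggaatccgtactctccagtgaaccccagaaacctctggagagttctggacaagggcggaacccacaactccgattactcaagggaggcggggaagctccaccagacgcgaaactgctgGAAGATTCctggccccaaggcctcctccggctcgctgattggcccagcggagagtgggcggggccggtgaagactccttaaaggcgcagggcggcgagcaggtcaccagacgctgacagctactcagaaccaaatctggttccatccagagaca
Hspa1b: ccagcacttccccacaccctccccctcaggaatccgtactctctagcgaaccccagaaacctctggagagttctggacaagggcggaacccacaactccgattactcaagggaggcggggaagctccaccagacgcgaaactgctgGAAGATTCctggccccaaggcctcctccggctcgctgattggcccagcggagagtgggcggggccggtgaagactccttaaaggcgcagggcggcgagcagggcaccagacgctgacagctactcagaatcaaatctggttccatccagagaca
Hspb1: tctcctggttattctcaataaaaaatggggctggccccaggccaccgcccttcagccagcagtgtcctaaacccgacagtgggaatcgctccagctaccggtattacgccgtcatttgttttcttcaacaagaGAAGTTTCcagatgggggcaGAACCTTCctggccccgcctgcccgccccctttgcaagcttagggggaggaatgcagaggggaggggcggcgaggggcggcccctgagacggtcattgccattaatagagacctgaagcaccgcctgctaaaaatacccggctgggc
Hsph1: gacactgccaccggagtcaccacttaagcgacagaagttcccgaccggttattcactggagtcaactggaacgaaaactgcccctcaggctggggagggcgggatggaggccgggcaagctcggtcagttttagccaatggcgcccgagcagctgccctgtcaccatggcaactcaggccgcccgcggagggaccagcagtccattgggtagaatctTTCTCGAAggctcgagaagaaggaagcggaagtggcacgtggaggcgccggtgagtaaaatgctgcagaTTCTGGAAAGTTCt
*Hspa1a* and *Hspa1b* each held 1 match, from base 147, and were the same at 296 of 300 bases. *Hspb1* held 2 matches and *Hsph1* held 3, of which the last 2 overlap. Of 8 heat shock genes with a promoter in the table, 6 held a match, and of all 32851 promoters 4946 did (15.1%), 7.86% with GAANNTTC and 8.52% with TTCNNGAA. The heat shock genes had 1 promoter each, whereas the 32851 belong to 27025 gene names. *Dnajb1* and *Hspd1*, also called higher in the sham brain, held no match, and *Dnaja1*, which was not called, held 1. A match describes letters in this window and shows no binding.

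*Klf2*, a transcription factor of resting and flow-exposed cells, was at 602 CPM in sham dura mater and 1936 in sham brain (1.69, 1.58 to 1.80), and lymphocytes were at 394 and 1532 CPM. *Cyr61*, a matrix protein, was at 84.2 and 388 CPM (2.21, 1.93 to 2.48), with 52.2% of its brain UMIs in 5 cells and lymphocytes at 0.699 and 3.41 CPM, or 11.04 and 31.3 with all of them counted. *Ccl3*, a chemokine for monocytes and lymphocytes, was at 433 and 1300 CPM (1.59, 1.45 to 1.72) and *Ccl12* at 577 and 1236 CPM (1.10, 0.97 to 1.22). *Ccl8* was at 1428 and 303 CPM (-2.24, -2.44 to -2.04), and its neighbours *Ccl2* and *Ccl7* had log2 ratios of 0.06 and 0.70. Of 4 monocyte chemokines that lie within the same stretch of chromosome 11, *Ccl8* alone was lower in the brain in the sham libraries. *Apoe*, a lipid carrier and the most abundant of the lipid genes, was at 23434 CPM in sham dura mater, 27330 in injured dura mater, 40734 in sham brain and 41888 in injured brain, so the brain cells were higher at both states by 0.80 and 0.62 on the log2 scale. Cells with 0 border genes, otherwise by the same rule, carried *Apoe* at 1252, 1235, 1188 and 18247 CPM in that order. The part of free RNA in the D3 difference was not tested.

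*H2-Aa* was at 2457 CPM in sham dura mater and 1067 in sham brain (-1.20, -1.31 to -1.09) and *Cd74* at 6824 and 2591 CPM (-1.40, -1.47 to -1.33). In the sham brain 96.8% of *H2-Aa* UMIs lay in 5 of 59 cells, and lymphocytes, whose B cells make these genes, were at 1264 CPM. Over cells, the median of the 4 MHC class II genes together was 1080 CPM in sham and 1329 in injured dura mater, so the median brain cell at 241 CPM was lower than the median dura mater cell. The list's median was -2.53 without the cells that had a UMI of a monocyte gene and -0.01, over 2 genes, when the level of all lymphocytes was subtracted. *Zbp1*, *Ifit3* and *Irf7*, which interferon induces, were at 81.5, 133 and 145 CPM in sham dura mater and at 12.8, 45.4 and 61.0 CPM in sham brain, with *Zbp1* log2 ratio -2.68 (-3.83 to -1.72). *Iigp1*, an interferon-induced GTPase, was at 124 and 5.67 CPM (-4.45, -6.33 to -3.08), and *Serpinb1a*, an inhibitor of neutrophil proteases, at 90.9 and 4.25 CPM (-4.42, -6.71 to -2.85) with 54.0% of its dura mater UMIs in 5 cells and lymphocytes at 148 and 112 CPM. *Axl* was at 149 and 34.0 CPM (-2.14, -2.80 to -1.54), *Siglec1*, a receptor for sialic acid, at 58.1 and 17.0 (-1.77), and *C3*, the central complement protein, at 77.0 and 18.4 (-2.06). *Cd55*, which limits complement, was at 118 and 26.9 CPM, but lymphocytes were at 86.8 and 133 CPM. Mast cell transcripts again led the lower side, with *Cma1* and *Mcpt4* first, since the sham brain held 3 UMIs of the 6 mast cell genes and the sham dura mater 6480. The sham brain comparison rests on 59 cells, and no comparison without microglia transcripts could be made because 1 of these cells had none.

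**Figure D4:**
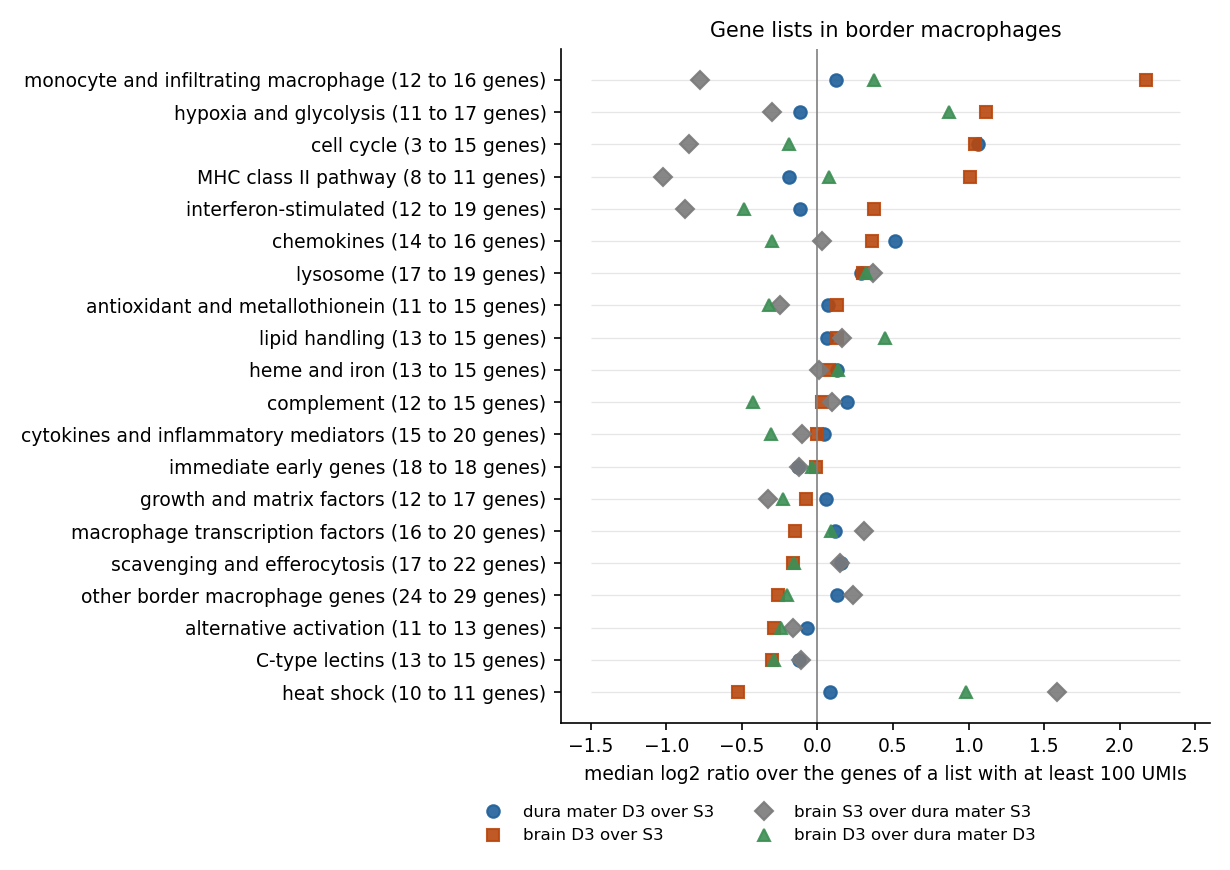
Median log2 ratio over the genes of a list with at least 100 UMIs (the range of gene numbers over the 4 comparisons in brackets), for injured over sham in each tissue and for brain over dura mater at S3 and D3. Not drawn are the rule markers, the sex-linked genes and the neutrophil, mast cell, microglia, dendritic, T and NK, B cell, erythroid, vessel and neural lists. Some of these had larger medians, such as -7.69 for the mast cell list in sham brain over sham dura mater. Heat shock stands to the right in both brain over dura mater comparisons, the monocyte, hypoxia and MHC class II lists to the right in the injured brain over the sham brain, and the lysosome list at 0.29 to 0.37 in all 4.

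At D3 the brain and dura mater cells differed in 337 of 6557 genes (5.14%), 87 higher in the brain (1.33%) and 250 lower (3.81%), with a median log2 ratio over all genes of -0.08. The D3 and S3 comparisons of tissues use different libraries. Of 29 other genes of border macrophages 1 was higher in the brain and 6 were lower (median -0.20). Complement genes were lower for 3 of 15 and higher for none (-0.43), and neutrophil genes lower for 4 of 11 and higher for none (-0.92). Genes of hypoxia and glycolysis were higher for 6 of 15 and lower for 1 (0.87), with the largest log2 ratio in *Vegfa* (3.06). Over 50% of the injured brain UMIs of *Vegfa* lay in 5 cells. Of 11 heat shock genes 5 were higher and none lower (median 0.98), with *Hspa1a* at 386 CPM in injured dura mater and 2962 in injured brain (2.94, 2.86 to 3.02), and lymphocytes at 17.6 and 1375 CPM. Of 15 C-type lectins 5 were lower and none higher (-0.28), namely *Cd209d*, *Cd209g*, *Cd209b*, *Cd209f* and *Mgl2*. Of these, *Cd209f* is a gene of the rule, so its value describes the chosen cells only. *Cd209g* was at 220 and 57.4 CPM (-1.94, -2.30 to -1.60) and *Mgl2*, a galactose lectin, at 557 and 249 (-1.16, -1.34 to -0.99). *Cd209d* and *Cd209b*, with 3 and 23 UMIs in the injured brain, rest on 3 and 5 cells there (-3.75, -6.05 to -2.18, and -1.77, -2.45 to -1.16). None of 10 genes of the MHC class II pathway was called (0.08), with *H2-Aa* at 2124 and 2127 CPM in the sum although the median cell had 1329 and 253 CPM of the 4 MHC class II genes.

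*Ccl8* was at 2849 CPM in injured dura mater and 309 in injured brain (-3.21, -3.36 to -3.06), and was seen in 68.8% and 24.8% of cells thinned to 3000 UMIs. At S3 the shares were 54.5% and 22.0%, so *Ccl8* was seen less often in the brain library at both states. *Saa3* was at 184 and 40.7 CPM (-2.18, -2.61 to -1.77) and *Il10*, an anti-inflammatory cytokine, at 78.1 and 18.3 CPM (-2.09, -2.76 to -1.48). *Mgp*, matrix Gla protein, had 227 UMIs in 127 injured dura mater cells (44.6 CPM) and 1 UMI in the injured brain (-5.81, -11.12 to -3.31). In the sham libraries it had 121 UMIs in the dura mater and 0 in the brain, 12.8-fold lower with the 0 set to 3 UMIs. It was at 1.71 CPM in injured dura mater lymphocytes and at 106 CPM in the other macrophages. *Tns1*, a protein of cell adhesion sites, was at 68.1 and 7.18 CPM (-3.24, -4.39 to -2.30). On the higher side, *Ccl3* was at 593 and 2012 CPM (1.76, 1.69 to 1.84), *Ccl24*, an eosinophil chemokine, at 218 and 454 (1.06, 0.91 to 1.21), *Trem2*, a lipid receptor of phagocytes, at 228 and 619 (1.44, 1.31 to 1.57) and *Ctsd* at 1665 and 3348 (1.01, 0.95 to 1.06). *Trem2* was seen in 46.1% and 72.3% of thinned cells, beside 1.67% and 10.9% of lymphocytes and 10.99% and 38.0% of all lymphocytes. *Gpnmb*, *Arg1*, *Spp1*, *Syngr1* and *Fabp5* also led the higher side, with 96.4%, 88.4%, 80.8%, 61.3% and 90.3% of their injured brain UMIs in 5 cells.

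Many called genes rested on few cells. Among genes higher in injured than in sham dura mater, the median share of UMIs in 5 of the 325 injured cells was 37.5%, against 10.7% over all 7046 genes, and 13 of the 43 had over 50% there. In the brain the median was 41.6% for the 72 higher genes, against 22.0% over all 2926 genes, and 60.3% for the 50 lower ones, against 29.6%. Between tissues the medians were 23.1% for the 183 genes higher in sham dura mater and 14.3% for the 250 higher in injured dura mater, against 14.9% and 10.3% over all genes. The genes higher in the brain had medians of 36.4% at S3 and 36.3% at D3, against 33.1% and 27.8%, where 5 cells were 8.47% and 4.85% of the border macrophages. Of the genes described here, *Ccl8*, *Wfdc17*, *Ccl6*, *Ccl9* and *Cxcl2* in injured dura mater had between 10.6% and 18.9% of their UMIs in 5 cells, and *Hspa1a*, *Klf2* and *Apoe* in sham brain between 16.0% and 20.8%. Of the sex-linked genes *Xist*, *Ddx3y*, *Eif2s3y*, *Kdm5d* and *Uty*, between 2 and 4 had enough UMIs and none was called in any of the 4 comparisons.

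**Figure D5:**
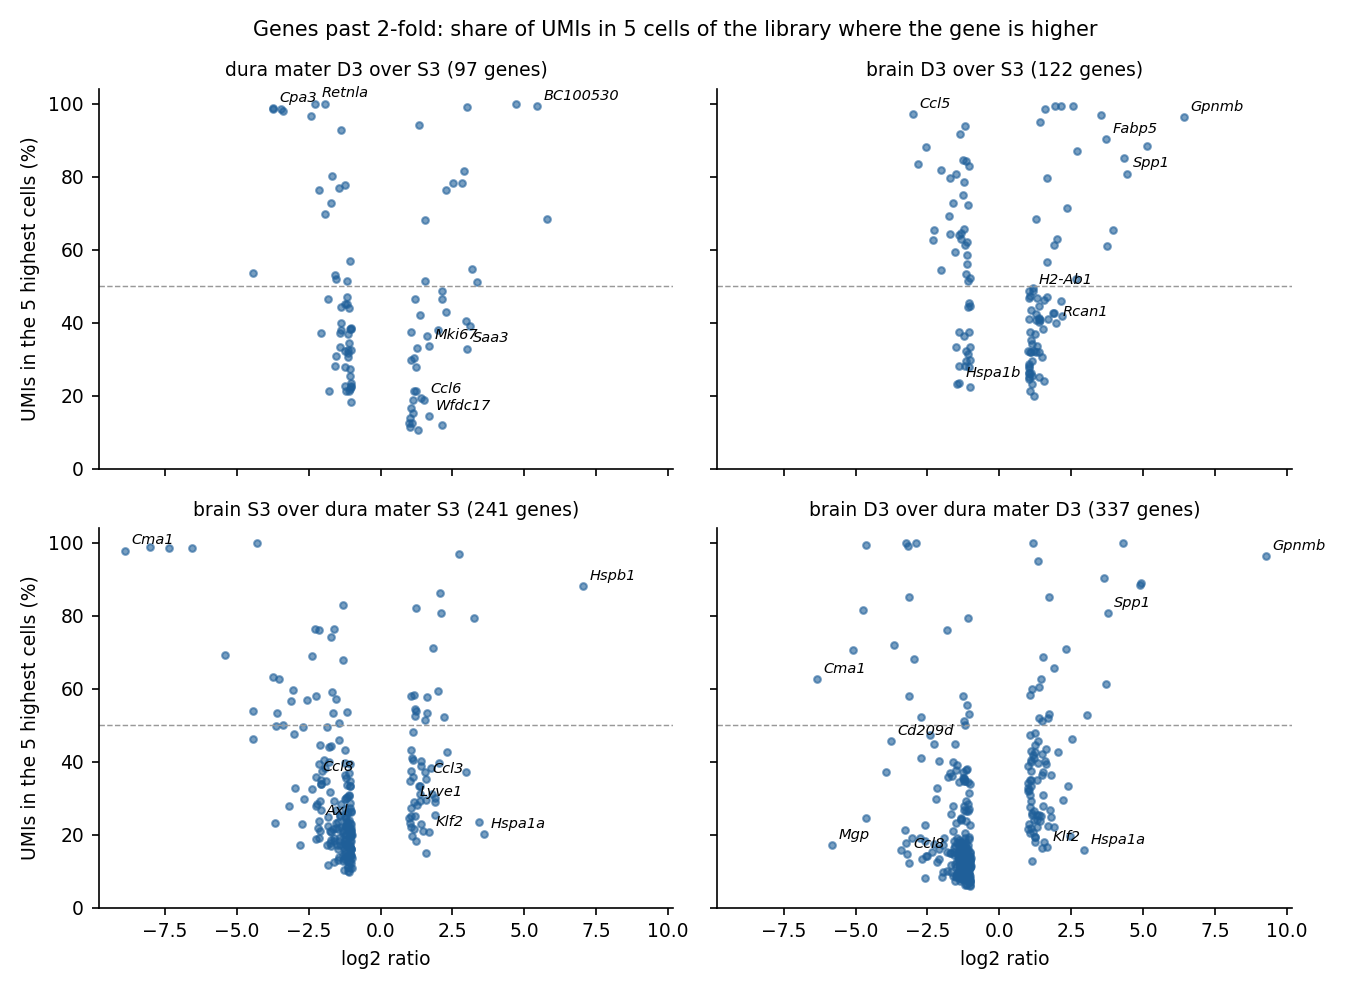
For every gene past 2-fold in a comparison, the share of its UMIs found in its 5 highest cells, in the library where it is higher, against its log2 ratio, with a broken line at 50%. *Gpnmb*, *Spp1*, *Cma1*, *Retnla* and *BC100530* lie above the line, and *Wfdc17*, *Ccl6*, *Ccl8*, *Klf2* and *Hspa1a* below it.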

How the data were processed

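Per the labels and the study's methods, CD45+ cells were sorted from tissue digested with collagenase, dispase and DNase, and the authors made the matrices with 10x 3′ libraries, Cell Ranger 3.1.0, the mm10 build and Seurat 3.1.0. The deposited values were natural log values, ln(1 + 10000 × UMIs of the gene over UMIs of the cell), for genes seen in at least 3 cells. UMI counts were recovered from them exactly, with every value whole within 1e-06, with scanpy 1.11.5, pandas 2.3.3, scipy 1.17.1 and numpy 2.4.6 under Python 3.11.15, and matplotlib 3.10.9 drew the figures. Free RNA and library depth scale such counts, so levels were set beside lymphocytes of the same library and shares were given at 3000 UMIs per cell. UMIs were summed over the border macrophages of a library, and the script was tested on simulated data. Per comparison, named genes were the 6 in each direction with the largest ratio at 200 or more UMIs and 2-fold also after thinning, leaving out genes of the rule, and at most 4 per list and direction past 2-fold, otherwise those with most UMIs. The members and the 31 lists were chosen with earlier results of these data known. Doublets were marked by Scrublet scores and kept, and 15 alternatives were run. Some genes of the sets used are not reported here.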

Additional observations from a re-analysis of the deposited data

Results flagged for a closer look

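*AA467197* was the only gene of 2919 past 2-fold in opposite directions in the dura mater and the brain, and was named after its values were seen. Its log2 ratio of injured over sham was -1.06 in the dura mater (83.7 and 40.1 CPM) and 2.36 in the brain (14.2 and 72.6 CPM). The sham brain had 10 UMIs of it in 5 cells, and 71.4% of the UMIs of the injured brain lay in 5 cells. With 1 library per group, the difference between tissues was not tested.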

How the results depend on the processing

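No paired analysis was possible because each group had 1 library, and for the same reason no replicate could be left out. In the order injured over sham dura mater, injured over sham brain, sham brain over sham dura mater and injured brain over injured dura mater, 97, 122, 241 and 337 genes were past 2-fold (1.38%, 4.17%, 5.57% and 5.14% of those compared). Thinning to 3000 UMIs gave 46, 25, 79 and 116 (1.97%, 3.97%, 7.85% and 6.06%), and a minimum of 400 UMIs gave 24, 34, 65 and 101 (0.846%, 5.23%, 6.30% and 4.16%), since fewer genes had enough UMIs. In injured over sham dura mater the count was 62 (4.97%) with no microglia transcript allowed, 161 (2.06%) with no filter on cells, 52 (1.11%) without cells with a monocyte gene, 295 (22.2%) with the free RNA level of all lymphocytes subtracted and 282 (14.9%) with that of lymphocytes with few macrophage genes. In injured over sham brain it was 63 (3.28%) with at least 5 border genes, 289 (6.87%) with at least 3, 48 (4.19%) without cells with a monocyte gene, 251 (4.19%) with no limit on microglia transcripts and 322 (40.0%) with all lymphocytes subtracted. In sham brain over sham dura mater it was 414 (27.7%) with lymphocytes with few macrophage genes subtracted. In injured brain over injured dura mater it was 556 (7.34%) with at least 3 border genes, 146 (16.7%) with no microglia transcript and 546 (27.7%) with the few-gene lymphocytes subtracted. In the order sham dura mater, injured dura mater, sham brain and injured brain, shares were 1.20%, 1.39%, 0.0267% and 0.282% with no microglia transcript and 9.22%, 20.4%, 3.52% and 4.48% with no limit. In that order they were 2.89%, 8.02%, 1.23% and 1.35% with at least 5 border genes, 7.29%, 16.1%, 1.95% and 3.33% with at least 3, and 6.10%, 13.8%, 2.05% and 2.57% with the rule on thinned cells.

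The direction turned in 23 values. With at least 5 border genes, *Ccl5* in the brain went to 0.11 and the T and NK cell list between injured tissues to 0.79. With at least 3, the injured over sham brain values of the MHC class II, cell cycle and dendritic cell lists and of *Stmn1* went to -0.33, -0.73, -0.74 and -0.74. The T and NK cell list in injured over sham dura mater, with 2 genes, went to -0.087 with at least 3 border genes, -0.13 with no microglia transcript, -0.62 with the rule on thinned cells and -0.029 with no microglia limit. Without cells with 3 mast cell genes, the mast cell list (2 genes in place of 5), *Mcpt4*, *Cpa3* and *Cma1* went to 0.59, 0.67, 0.28 and 0.50 there. With all lymphocytes subtracted, the MHC class II, monocyte and hypoxia lists, *Arg1* and *Spp1* in the brain went to -0.42, -1.08, -2.55, -1.08 and -3.05, and between injured tissues the mast cell list, *Mcpt4* and *Tpsb2* each to 2.02 and *Syngr1* to -1.20. The causes were not tested. Of the other list medians 383 moved and 1060 did not, and of the other named genes 239 moved and 356 did not. The alternatives with no microglia limit, without mast cell genes and with the few-gene lymphocytes were chosen after seeing the data. With no microglia transcript 1 sham brain cell was left, so its comparisons could not be made. The 59 sham brain cells and 705486 UMIs set the depth of every comparison with that library.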
